A study of Mus musculus with 2 samples.

Results

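The transcripts described here are the stretches of nascent RNA whose midpoint lay in a simple repeat or in a low complexity sequence of the mouse genome. They were chosen as every called transcript whose detailed annotation named the repeat class Simple_repeat or Low_complexity. The control library held 4943 of them among 43122 called transcripts, and the library made after 1 h of IL-4 held 3937 among 51365. Together these were 8880 of 94487 transcripts. The choice used the position of a transcript only, not its score.

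Simple repeats, or microsatellites, are short units of DNA written many times in a row. Low complexity sequences are stretches dominated by few bases without a fixed unit. Both are scattered through introns and the space between genes, and they are copied into RNA whenever a polymerase crosses them, so that they are usually seen as pieces of a longer nascent transcript. Since the DNA strands are complementary, a repeat that is AC on one strand is GT on the other, and the strand that is transcribed decides which of the bases appears in the RNA.

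The samples were bone marrow-derived macrophages (BMDMs) of wild-type (WT) mice on a C57BL/6 background, aged 8 to 12 weeks. Marrow cells were differentiated for 6 days with L929 cell supernatant, a source of macrophage growth factor. The control was left untreated, and the other culture received IL-4 at 20 ng/ml for 1 h, the cytokine of alternative macrophage polarization. Nascent RNA was labelled with bromouridine in isolated nuclei (global run-on), duplicate run-on reactions were pooled, and 1 library was sequenced per condition, so no value below has a replicate.

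Macrophage identity was checked with called transcripts whose midpoint lay inside defining genes, on the strand of the gene. All 8 macrophage markers had transcripts in both libraries, with highest scores of 1.6 in control and 1.4 after IL-4 for Adgre1, 5.6 and 4.6 for Csf1r, and 2.7 and 13.1 for Mrc1. Adgre1, which encodes the macrophage surface protein F4/80, held 65 transcripts in control and 78 after IL-4, of which 9 and 5 were repeat transcripts. Of 8 markers of other cells only Pecam1 had any, with a highest score of 0.3 in control and 0.8 after IL-4. By the gene name of the nearest promoter instead, 6 of the macrophage markers had transcripts in each library, and Adgre1 and Spi1 had 0.

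Because the nascent RNA carried the repeats in one reading far more often than in the other, the reference sequences of a few of these transcripts are shown first. They are among the highest-scoring transcripts of their kind that lay whole inside an exon of a noncoding or intron-retaining transcript, outside coding sequence and UTRs, and were no longer than 300 bp. All are written 5′ to 3′ on the transcribed strand, from GENCODE transcripts of build GRCm38 (mm10), in DNA letters, so that T stands for U in the RNA. Capitals mark the longest stretch built only of the letters of the repeat, which are G and T for the first 3, C and T for the next pair and A and C for the last.

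Neat1, unit GTTT, chr19:5826844-5827104, minus strand, control score 28.1:
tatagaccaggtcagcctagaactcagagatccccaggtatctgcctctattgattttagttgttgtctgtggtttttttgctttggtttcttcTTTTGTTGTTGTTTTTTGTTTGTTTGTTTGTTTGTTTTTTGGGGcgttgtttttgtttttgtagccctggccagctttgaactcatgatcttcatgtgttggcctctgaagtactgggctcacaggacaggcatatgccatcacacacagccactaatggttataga
Nmt2, unit GTTTTT, chr2:3305235-3305317, plus strand, control score 1.9:
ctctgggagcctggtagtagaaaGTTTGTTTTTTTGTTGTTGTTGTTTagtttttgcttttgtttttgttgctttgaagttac
Rilpl2, unit GT, chr5:124476867-124476917, minus strand, control score 0.8:
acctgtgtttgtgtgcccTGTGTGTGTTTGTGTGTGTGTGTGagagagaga
Abl1, unit CTTT, chr2:31696419-31696608, plus strand, IL-4 score 0.9:
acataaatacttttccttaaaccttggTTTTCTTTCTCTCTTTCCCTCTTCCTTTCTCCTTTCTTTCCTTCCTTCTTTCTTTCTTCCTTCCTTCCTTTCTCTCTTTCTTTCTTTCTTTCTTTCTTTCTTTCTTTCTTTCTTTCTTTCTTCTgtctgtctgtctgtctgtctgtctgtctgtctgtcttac
Myo1g, CT-rich, chr11:6514041-6514130, minus strand, control score 1.1:
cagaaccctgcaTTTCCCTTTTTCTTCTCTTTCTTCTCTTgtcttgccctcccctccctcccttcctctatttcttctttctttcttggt
Fli1, unit AC, chr9:32536990-32537086, minus strand, control score 0.5:
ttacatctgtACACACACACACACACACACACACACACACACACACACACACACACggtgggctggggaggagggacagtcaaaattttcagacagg

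Neat1 is the long noncoding RNA that builds nuclear paraspeckles, Abl1 is a tyrosine kinase and Fli1 an ETS transcription factor. The G and T stretch ran for 44 bases in Neat1. In Fli1 the repeat itself was transcribed as AC, so that the sequence held 12.4% U and 37.1% A. In the other 5 sequences U exceeded A.

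Nearly all of these transcripts lay in introns. In control, 4543 (91.9%) were intronic and 400 were intergenic, and after IL-4 the numbers were 3682 (93.5%) and 255. Of all called transcripts, 64.3% in control and 65.2% after IL-4 were intronic. No other annotation class occurred. Whether the choice by repeat name could admit another class was not tested, so this absence is not a result about the repeats. Simple repeats made up 72.9% of the control set (3605 transcripts) and 72.5% of the IL-4 set (2853), and low complexity sequences the remaining 1338 and 1084.

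Their share of all called transcripts was 11.5% in control (95% Wilson interval 11.2 to 11.8%) and 7.66% after IL-4 (7.44 to 7.90%). These intervals, like all those below, cover counting error only and not the spread between cultures, which 1 library cannot show. The lengths moved too. The repeat transcripts had a median length of 155 bp before and 222 bp after IL-4, and that of all other transcripts was 234 and 318 bp. Short transcripts were repeat-rich in both libraries. Of the transcripts of 36 to 59 bp, 40.5% were members in control and 39.0% after IL-4, whereas among those of 500 bp or more the shares were 4.52% and 2.38%. At 60 to 119 bp and at 120 to 199 bp the IL-4 share was the higher one, 31.3% against 25.1% and 14.3% against 12.6%. From 200 bp on it was the lower one. When the IL-4 shares of the 6 length classes were weighted by the control numbers, the overall IL-4 share came to 12.0%, above the control share. The lower overall share after IL-4 went along with fewer short transcripts in that library, 0.639% under 60 bp against 2.10% in control. The part of transcript length in the overall share was not tested further.

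**Figure D1:**
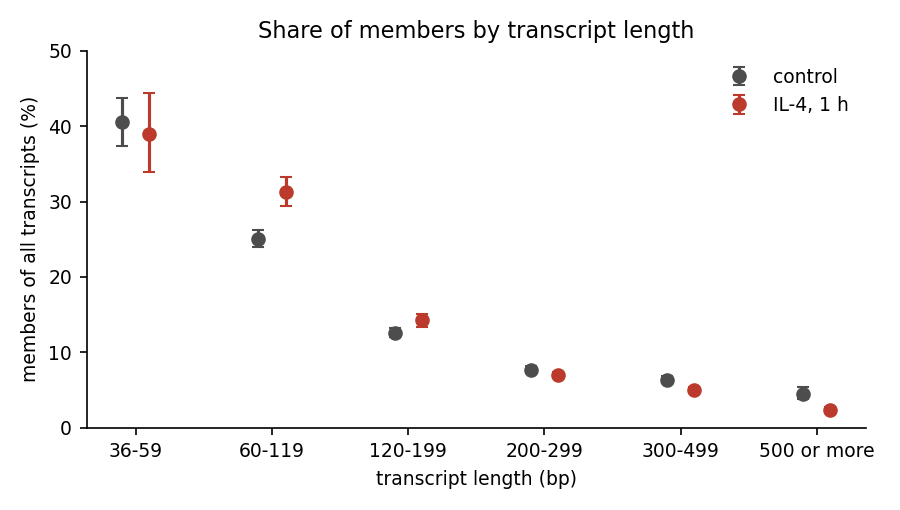
Percent of all called transcripts that were simple repeat or low complexity transcripts (vertical axis) in 6 classes of transcript length in bp (horizontal axis), for control (grey) and IL-4 (red), with 95% Wilson intervals as bars. The shares are 40.5% and 39.0% in the shortest class and 4.52% and 2.38% in the longest.

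The scores of the repeat transcripts were higher than those of the others. A score is the number the transcript caller gave to a transcript, printed to 1 decimal. The median score was 0.4 in control and 0.3 after IL-4, against 0.3 and 0.2 for the others. A score of at least 1 was reached by 16.0% of the control set (792 transcripts) and by 9.14% of the IL-4 set (360), against 6.20% and 3.41% of the others. Within each of the 6 length classes the median scores of repeat transcripts and others lay within 0.2 of each other. At 36 to 59 bp the medians were 0.8 for repeat transcripts and 0.7 for others in control, and 0.7 and 0.9 after IL-4. A length of exactly 235 bp was frequent in all groups and was found in 6.03% of the control set and 8.54% of the other control transcripts.

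The repeat units were next sorted by length and composition. Units of 2 bases were the most frequent, with 29.3% of the control set (1448 transcripts) and 27.1% of the IL-4 set (1068). Units of 4 bases followed with 17.9% and 17.6%, those of 5 bases with 12.7% and 13.4%, and those of 6 bases with 5.99% and 6.07%. Units of 3 bases (4.21% and 4.37%) and single-base runs (2.83% and 3.89%) were the rarest. Only single-base runs were more numerous after IL-4, 153 against 140. The longer units numbered from 0.738 (2 bases) to 0.841 (5 bases) times their control counts. All members together numbered 3937 after IL-4 against 4943 in control, and all called transcripts 51365 against 43122. The unit length also separated the transcripts by size. Units of 2 bases lay in transcripts with a median of 214 bp before and 282 bp after IL-4, whereas units of 5 bases lay in transcripts of 112 and 160 bp.

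By composition, units built of A and C, or of G and T on the other strand, formed the largest class with 51.4% of the control set and 48.3% of the IL-4 set. A-rich or T-rich low complexity sequence (12.9% and 14.2%) and units of A and G, or C and T (12.8% and 13.2%), came next. Units of C and G alone were rare, with 12 transcripts in control and 6 after IL-4. Within the largest class the dinucleotide AC/GT alone gave 1244 control and 929 IL-4 transcripts. The longer units that add T to GT gave 470 and 309 (GTTT), 391 and 333 (GTTTT), 212 and 163 (GTTTTT) and 86 and 69 (GTT). AC/GT transcripts were long and low in score, with control medians of 217 bp and 0.3, and GTTTT transcripts were short and higher, with 88 bp and 0.7.

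The strand on which the repeats were transcribed was strongly uneven. The reading of a transcript was taken from the name of its repeat, complemented for the minus strand, and not from the reads. Leaving out 351 control and 283 IL-4 transcripts whose names hold A and T equally or not at all, the repeat of 3919 control transcripts was read with more U than A and that of 673 with more A than U. The share reading U was 85.3% (84.3 to 86.3%) in control and 86.6% (85.5 to 87.7%) after IL-4, where the numbers were 3165 and 489. The intervals of the libraries overlapped. The asymmetry was alike on both genome strands. In control it was 85.0% for plus-strand and 85.8% for minus-strand transcripts, and after IL-4 86.8% and 86.4%.

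**Figure D2:**
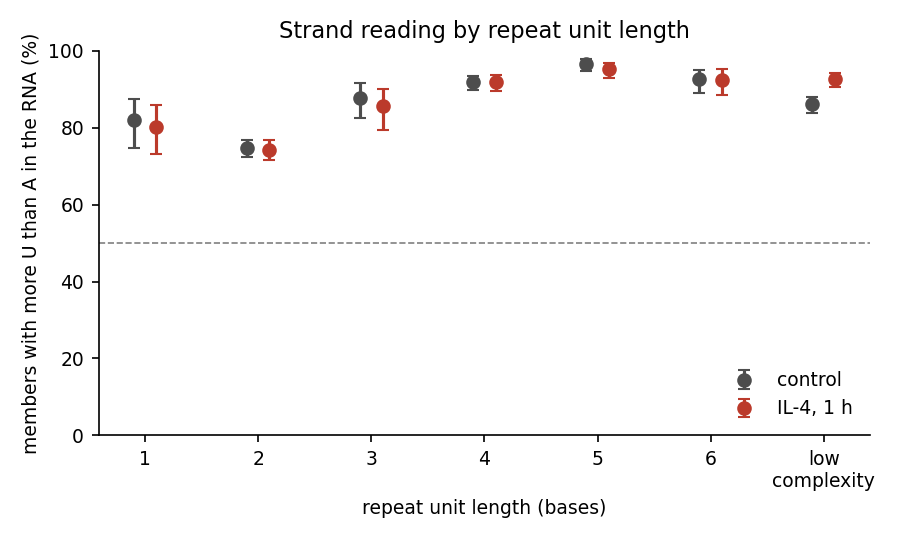
Percent of transcripts whose repeat was read with more U than A (vertical axis), among those with unequal U and A, by repeat unit length in bases and for low complexity sequence (horizontal axis), in control (grey) and after IL-4 (red), with 95% Wilson intervals as bars and a dashed line at equal shares. All points lie above the dashed line, lowest for units of 2 bases (74.7% and 74.2%) and highest for units of 5 bases (96.6% and 95.2%).

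The asymmetry was most complete in the GT units with added T. Of the control transcripts, 467 were transcribed as GTTT and 3 as its complement, 391 as GTTTT and 0 as its complement, 210 as GTTTTT and 2 as its complement, and 85 as GTT and 1 as its complement. In sum, 99.5% of control (1153 of 1159) and 99.0% of IL-4 transcripts (865 of 874) of these 4 families read the T-containing strand. A share of 0 among 391 allows up to 0.767% by the limit of 3 counts. T-rich low complexity sequence read U in 94.8% and 97.0%. For AC/GT the share was 77.6% (75.2 to 79.8%) and 76.9% (74.0 to 79.5%), and for AG/CT 56.7% (49.8 to 63.4%) and 56.2% (47.8 to 64.2%), and both intervals of the latter family took in an equal split. GA-rich and CT-rich sequence was read as CT-rich in 74.0% of control and 85.1% of IL-4 transcripts, and these intervals (69.6 to 77.9% and 80.7 to 88.6%) did not overlap. They cover counting error only, and a difference between conditions was not tested. The transcripts of this family also differed in median length (194 and 235 bp) and score (0.3 and 0.2) between control and IL-4.

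To see what the reference offers, tandem runs of at least 20 bases were counted on the sense strand of 55007 noncoding and intron-retaining GENCODE transcripts. The T-containing reading was also the more frequent one there, but less so. It took 61.8% of 597 GTTT or AAAC runs, 61.3% of 463 GTTTT runs, 64.8% of 54 GTTTTT runs, 56.1% of 171 GTT runs and 52.5% of 2558 GT runs. For CT the reference share was 60.2% of 847 runs, above the 56.7% of the control transcripts and inside their interval. These runs come from annotated exons and not from the introns that hold most of the called transcripts, so they are given for scale only.

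The transcripts were then sorted by the strand of the host gene. Of the control intron transcripts with a known host strand, 4380 of 4444 (98.6%) were sense to the host, as were 96.5% of the other intron transcripts. After IL-4 the shares were 98.8% and 97.0%. Among sense transcripts 86.4% read U in control and 87.6% after IL-4. Among the 64 control and 38 IL-4 antisense transcripts with unequal U and A the shares were 57.8% (45.6 to 69.1%) and 60.5% (44.7 to 74.4%), below those of sense transcripts. Intergenic transcripts lay between these, at 79.6% and 77.6%.

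U-reading and A-reading transcripts also differed in size and score. In control the median length was 140 bp for U-reading and 215 bp for A-reading transcripts, and 200 and 311 bp after IL-4. Their median scores were 0.5 and 0.3 in control and 0.3 and 0.2 after IL-4. The U-reading share was larger at higher scores, from 74.3% at scores of 0.1 to 0.2 to 87.1% at 0.3 to 0.9 and 94.7% at 1 or more in control, and from 78.2% over 92.4% to 93.8% after IL-4. Among the few with scores of at least 5 it was lower again, at 87.8% of 41 and 75% of 12. It was smaller in longer transcripts, from 93.1% at 60 to 119 bp to 74.5% at 500 bp or more in control, and from 99.0% to 67.2% after IL-4. The shortest class was an exception, with 90.8% and 77.2%. The assay labels RNA at U and selects the labelled molecules, and its part in the asymmetry was not tested.

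The base content itself could be read for 153 control and 117 IL-4 transcripts inside noncoding exons, outside coding sequence and UTRs. Their median U content was 47.6% in control and 49.2% after IL-4, with 11.7% and 12.7% A. For the other called transcripts of the same kind of exon, 1296 and 1346 in number, the medians were 28.9% and 29.1% U and 20.1% and 21.8% A. More U than A was found in 86.9% of the repeat transcripts in control and 91.5% after IL-4, and in 75.8% and 73.7% of the others. The others leaned to U as well. In each of the 102 control and 85 IL-4 transcripts in which the named unit could be found in 1 orientation, it stood in the orientation that the name and strand predict.

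**Figure D3:**
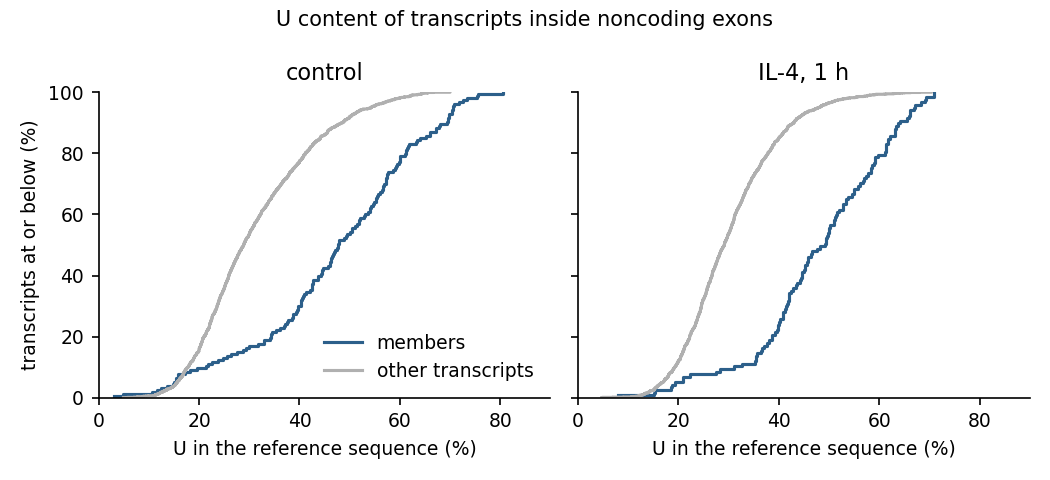
Cumulative percent of transcripts (vertical axis) at or below a given U content of the reference sequence in percent (horizontal axis), for transcripts inside noncoding exons and outside coding sequence and UTRs, in control (left) and after IL-4 (right). The curve of simple repeat and low complexity transcripts (blue, 153 and 117) lies to the right, except at the lowest U contents, of that of other transcripts (grey, 1296 and 1346), with medians of 47.6% and 49.2% against 28.9% and 29.1%.

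In each library the 2 highest scores belonged to short transcripts that went against this pattern. In an intron of Spint1, a protease inhibitor gene, a T-rich sequence was transcribed from the minus strand as A-rich RNA, with a score of 84.1 over 55 bp in control (chr2:119240601-119240655) and 45.4 over 56 bp after IL-4. An (A)n run in Dlc1 had scores of 44.7 and 40.9 over the same 42 bp (chr8:36612778-36612819) in both libraries. An AAAC repeat in the integrin gene Itga9 scored 20.2 in control over 114 bp. Its IL-4 counterpart scored 20.7 over 160 bp and carried the name of a large-subunit ribosomal RNA repeat instead. All 3 were antisense to their host gene.

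The other leading control transcripts read U. Neat1 gave a pair of them, the GTTT transcript shown above with 28.1 and a GT transcript of 453 bp with 19.9. Their counterparts after IL-4 scored 9.1 over 373 bp and 7.1 over 1168 bp, which were centred log2 ratios of -1.30 and -1.16 (defined below). The uncharacterized gene A630001G21Rik had a GTTT transcript of 14.1, and Mbnl1, a regulator of splicing, a GTTTTT transcript of 11.3 and a GTTTT transcript of 10.6. A CTGT transcript of 11.3 lay in an intron of the transcriptional coregulator gene Zmiz1. A GT transcript of 1041 bp in the blood cell transcription factor gene Runx1 scored 10.9. The IL-4 counterparts of these 5 transcripts scored between 3.1 and 6.1, before any centring. This list was chosen by its control scores, so lower counterparts were expected from the choice and show no direction.

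The leading list of the IL-4 library was chosen by its IL-4 scores, so lower control scores were expected in the same way. Behind Spint1 and Dlc1 came T-rich transcripts in Atp6v0a1, a subunit gene of the vacuolar proton pump (11.4, against 3.1 in control), and in the endocytic adaptor gene Itsn2 (10.2 against 6.7). The signalling adaptor gene Gab2 held a GTTTTT transcript of 9.5 (5.3 in control) and a T-rich one of 9.2 (7.6 in control). Matr3 on chromosome 18, which encodes a nuclear matrix protein, had a GTTTTT transcript of 8.3 (5.9 in control), and the ubiquitin ligase gene Rnf19b a T-rich transcript of 7 (1.4 in control). Dennd1a held a GTTT transcript of 6.3 (3.5 in control). A GTTTT transcript of Ptprc, which encodes the leukocyte surface phosphatase CD45, scored 6.3, below its 7.1 in control.

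Some host genes held many such transcripts. Lrmda on chromosome 14 (22019712 to 23056085) held 31 in control and 23 after IL-4 among 214 and 241 called transcripts. Slc9a9 held 21 and 19 among 101 and 123, and the tumor suppressor gene Wwox 19 and 19 among 44 and 36. Runx1 held 23 and 12 among 106 and 106, and the kinase gene Prkcb 22 and 12 among 60 and 62. These genes were picked after their counts were seen. Over all called transcripts, members made up 11.5% in control and 7.66% after IL-4. In all, 2317 host genes had a member in control and 1993 after IL-4, and 1436 had one in both. A single member was found in 1407 of the control and 1257 of the IL-4 hosts.

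Whether a repeat transcript was present in both conditions was asked by position, where 1 shared base on the strand of the transcript made a counterpart. In control 1777 of 4943 (35.9%, 34.6 to 37.3%) had no counterpart after IL-4, against 37.4% of all control transcripts. After IL-4 1211 of 3937 (30.8%, 29.3 to 32.2%) had none in control, against 48.1% of all IL-4 transcripts. In the IL-4 library the repeat transcripts had a control counterpart more often than the others, 49.5% of which had none. With a score of at least 0.3, the shares were 28.1% in control and 17.0% after IL-4, against backgrounds of 22.5% and 19.7%. A-reading transcripts lacked a counterpart more often than U-reading ones, 52.2% against 32.8% in control and 43.8% against 28.1% after IL-4, and they were also lower in score.

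A counterpart was often not a repeat transcript itself, because the midpoint decides the name. Of 3166 control members with a counterpart, 1689 (53.3%) overlapped a member of the IL-4 library. Of 2726 IL-4 members with a counterpart, 1688 (61.9%) overlapped one of control. Where a control member was paired with a transcript of another name, that transcript lay outside any annotated repeat in 65.8% of 1450 pairs and in a SINE in 25.2%. SINEs are short interspersed elements, and their A-rich tails often adjoin such repeats.

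The transcripts with the highest scores and no counterpart were U-reading in both libraries. In control the first were a GT transcript of 3.2 and a GTTT transcript of 3 in Slc16a10, an aromatic amino acid transporter gene. A 38 bp GTTT transcript in the exchange factor gene Arhgef10l scored 2.7, and another in Plekhm3 2.5. Slc16a10 held 4 members in control, none of them with a counterpart, and 0 after IL-4. The 1 pair of this gene without a member had a centred log2 ratio (defined below) of -0.09. In the IL-4 library the scores were lower. They were 1.6 for a GTT transcript in the cationic amino acid transporter gene Slc7a2, 1.4 for a GTTTT transcript in the hyaluronan receptor gene Cd44, and 1.2 for a GTTTT transcript in the growth factor gene Pdgfc. A GT transcript in Gvin1, listed under Gm4070, had 1.2 and a GTTTT transcript in the uridine-cytidine kinase gene Uck2 1.1.

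For the change in score, each control transcript was paired with the IL-4 transcript with which it shared the largest overlap in both directions, and log2 ratios (IL-4 divided by control) were shifted so that the median of all 26395 pairs, which was -0.32, became 0. Of these pairs, 4171 held a member in at least 1 library. Such a pair is named after the repeat of its member, also where its other transcript carried another name. At least 2-fold higher scores after IL-4 were found in 319 of the 4171 (7.65%), against 10.3% of all pairs, and at least 2-fold lower scores in 692 (16.6%), against 11.5% of all pairs. The 22224 pairs without a member were even, with 10.8% higher and 10.6% lower. The median centred log2 ratio of pairs with a member was -0.26 and that of pairs without was 0.06. Scores are printed to 0.1, so that many ratios sit exactly at 2-fold. Over the whole range that rounding allows, 169 (4.05%) were higher and 278 (6.67%) lower, against 3.86% and 3.21% of all pairs. A pair with a control score of 0.1 or 0.2 could not be called lower, since the lowest IL-4 score among the pairs was 0.1. Such pairs were 732 of those with a member and 7775 of those without. The 3 pairs with an IL-4 score of 0 had been left out. At control scores of 0.3 to 0.5, 17.1% of pairs with a member and 15.7% of pairs without were lower. The shares were 19.1% and 14.9% at 0.6 to 0.9, and 26.0% and 20.7% at 1 or more.

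**Figure D4:**
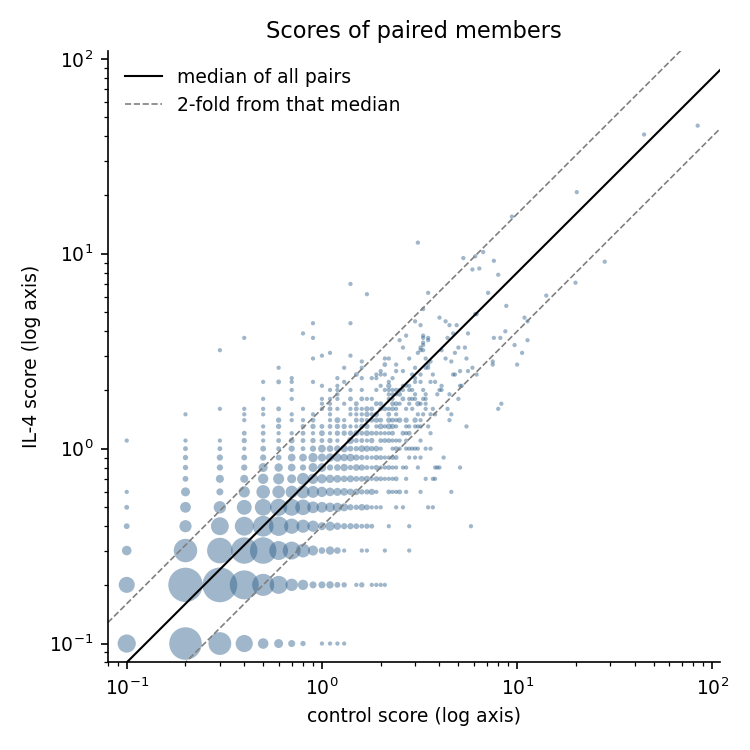
IL-4 score against control score (both on log axes) of the 4171 pairs that held a simple repeat or low complexity transcript, with the area of a point growing with the number of pairs at that pair of scores. The solid line marks the median ratio of all 26395 pairs and the dashed lines 2-fold from it, with 319 pairs on or above the upper and 692 on or below the lower dashed line.

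Lower pairs outnumbered higher ones whichever library gave the name, as they also did, less strongly, among all pairs (11.5% against 10.3%). They were 14.4% against 6.36% in 1683 pairs with a member in both, 21.5% against 7.24% in 1450 pairs with a member in control only, and 13.2% against 10.3% in 1038 pairs with a member in IL-4 only. The shares of the last group were near those of all pairs. Among pairs with a score of at least 0.3 in at least 1 library, 19.02% were lower and 7.48% higher, against 15.2% and 9.51% of all such pairs. This filter could not remove a lower pair, since a lower call needs a control score of at least 0.3. The lower pairs with a member stayed at 692, so these shares are no further evidence of the direction. Where a score of at least 1 was reached, 23.6% were lower and 8.67% higher among 1038 pairs with a member, against 19.6% and 11.0% of all 3430.

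The comparison was repeated within classes of length. Among pairs whose control transcript was shorter than 120 bp, 19.1% of 1412 with a member and 19.4% of 2761 without were at least 2-fold lower. At 200 bp or more the shares were 17.8% of 1687 and 9.35% of 14659. The difference between repeat transcripts and others was 8.49 percentage points in the long class and -0.399 in the short one. These classes were formed after the data were seen.

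**Figure D5:**
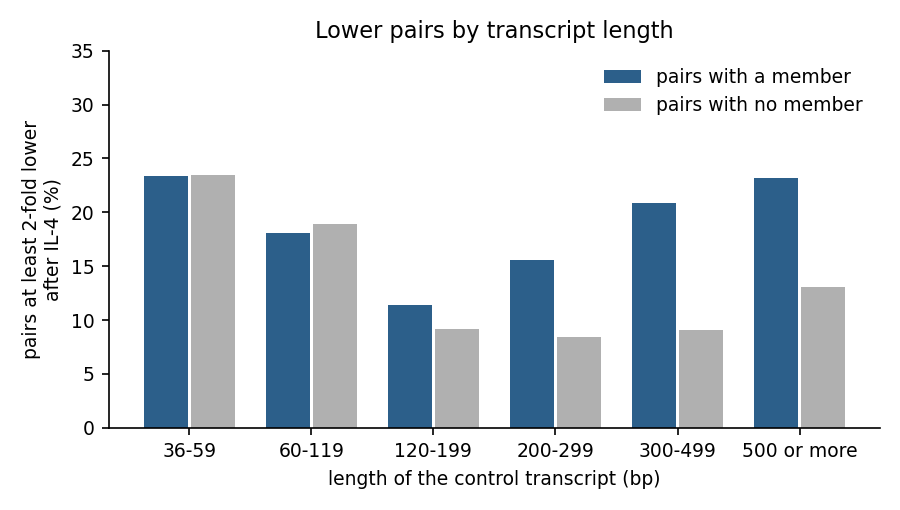
Percent of pairs at least 2-fold lower after IL-4 (vertical axis, from 0) by the length of the control transcript in bp (horizontal axis), for pairs with a simple repeat or low complexity transcript (blue) and pairs without (grey). The bars are alike in the shortest class (23.3% and 23.4%) and furthest apart at 300 to 499 bp (20.8% and 9.10%).

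Among the families with at least 100 pairs, the AC/GT dinucleotide had the largest share of lower pairs. Of its 928 pairs, 233 (25.1%) were at least 2-fold lower and 63 (6.79%) higher, against 11.5% and 10.3% of all pairs. Units of A and G, or C and T, came nearest, with 21.2% lower of 156 AG/CT pairs and 18.95% of 306 pairs of CT-rich or GA-rich sequence. The GTTT family had 16.3% lower of 443, GTTTT 13.5% of 422, GTTTTT 12.0% of 225, T-rich or A-rich sequence 11.4% of 589, and C-rich or G-rich sequence 10.9% of 201. Single-base A or T runs went the other way, with 6.29% lower and 10.5% higher of 143. For AC/GT the share of lower pairs was nearly the same below 200 bp (24.1% of 340) and from 200 bp on (25.7% of 588), whereas the other members had 14.4% and 13.6%. It was 26.6% for the GT and 18.9% for the AC reading, of 744 and 185 pairs, with 1 pair counted in both. The AG reading (27.7% of 65) and the GA-rich reading (27.4% of 62) were at least as high as the GT reading, in fewer pairs, as was the small CTCTGT family (27.5% of 51).

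The lower AC/GT pairs were spread over 173 host genes, of which 141 held 1 each and none more than 4. They were also compared with the rest of their host. For 648 AC/GT pairs in 397 hosts that had at least 3 pairs without a member, the centred log2 ratio lay below the median of those host pairs in 63.0% and above it in 27.2%, with a median difference of -0.36 (quartiles -0.85 and 0.13). For 1994 pairs of other members the figures were 54.0% and 38.8%, with a median difference of -0.13. From 200 bp on, other members were level with their hosts (median difference 0 over 761 pairs), while AC/GT pairs stayed lower (-0.29 over 414). No test was applied, since pairs of 1 library are not replicates of a condition.

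Among the single loci with a score of at least 1 in at least 1 library, 1038 in all, the largest increase was that of a GT repeat in Tbc1d16, a Rab GTPase-activating protein gene, from 0.1 to 1.1 (a centred log2 ratio of 3.78, or 3.13 to 4.85 over the rounding range). A GTTT repeat in Arhgap26 on chromosome 18 went from 0.3 to 3.2 (3.74, 3.49 to 4.02), and a GTTTTT repeat in the endocytic adaptor gene Dab2 from 0.4 to 3.7 (3.53, 3.34 to 3.74). The following pair lay in intron 9 of Mrc1, the mannose receptor gene and a marker of alternative polarization, where the files name the host microRNA Mir511. A GT repeat there went from 0.2 over 517 bp to 1.5 over 1613 bp (3.23) and an AGAT repeat from 0.2 to 1.1 (2.78). In the Tbc1d16 and Arhgap26 pairs only the IL-4 transcript carried the repeat name. In the Dab2 and Mrc1 pairs only the control transcript did.

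All 5 paired members of Mrc1 were higher after IL-4, by 2.13 to 3.23 on the centred log2 scale. The 16 other pairs of Mrc1 were also all at least 2-fold higher, with a median of 2.32 against 2.61 for the members. The members and the other pairs of this gene thus lay in overlapping ranges. In Tbc1d16 both paired members were higher, and a further 5 IL-4 members had no counterpart in control. Tbc1d16 had 0 pairs without a member to compare them with.

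The largest decrease was in intron 1 of Zdhhc14, a palmitoyltransferase gene, where a GT transcript went from 5.8 over 392 bp to 0.4 over 355 bp (a centred log2 ratio of -3.54, or -3.74 to -3.35 over the rounding range). An AG repeat of the same intron went from 1.1 to 0.1 (-3.14). Of 8 paired members of Zdhhc14, 5 were at least 2-fold lower, with a median of -2.12, and 8 of its 25 other pairs were lower, with a median of -0.42. A GT repeat in Pou2f2, a lymphoid and myeloid transcription factor gene, went from 1.3 to 0.1 (-3.38), and a GTTTT repeat near the endolysosomal transporter gene Slc15a4 from 1.2 to 0.1 (-3.26). The fifth was the GTTTT transcript in intron 2 of the Toll-like receptor gene Tlr2 (chr3:83840532-83840644), with 2.1 in control and 0.2 after IL-4 (-3.07, -3.52 to -2.71). Both transcripts carried the repeat name in the Pou2f2 pair, and only the IL-4 one in the AG pair of Zdhhc14. In the GT pair of Zdhhc14 and the Slc15a4 and Tlr2 pairs only the control one did.

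Of the 10 genes named by the study as IL-4-repressed, 5 held 13 members in control and 3 held 4 after IL-4, where the midpoint had to lie in the gene on its strand. All their called transcripts numbered 84 and 23, so that the share of members was 15.5% and 17.4%, against 11.5% and 7.66% over all transcripts. By the gene names in the files, which give the nearest promoter, the members were 8 of 74 and 2 of 22. All 6 pairs with a member were at least 2-fold lower, as were 3 of the 12 other pairs of these genes. Beside Tlr2 these were an ATCT repeat in intron 1 of the C-type lectin receptor gene Clec4d, from 1.6 to 0.2 (-2.68), a CTCTGT repeat in intron 5 of the cholesterol exporter gene Abca1, from 1.7 to 0.4 (-1.77), a GTTT repeat (3.7 to 0.7, -2.08) and a GT repeat (-1.85) in Abca1 listed under Nipsnap3b, and a CT-rich sequence in the inflammasome gene Nlrp3 (0.4 to 0.1, -1.68). The last 3 were added after their values were seen. Without a pair were a second transcript of Clec4d (1.8 in control), 2 further control members of Abca1 (0.2 and 0.3) and the 5 control members of the TGF-beta signalling gene Smad3 (0.2 to 0.6). The list was named by the study for its direction and is not independent evidence of it. The 3 genes named as induced, Klf4, Hbegf and Edn1, held no member in either library.

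Of 30 genes of the IL-4 pathway, 8 held 20 members among 112 called transcripts in control (17.9%) and 13 held 24 among 268 after IL-4 (8.96%), by position. Their 24 pairs had 9 higher and 2 lower, with a median of 0.32, and their 58 other pairs had 28 higher and 4 lower, with a median of 0.74. The 5 pairs of Mrc1 were among the higher ones. By the gene names in the files the members were 13 of 96 and 20 of 203, with 4 of 18 pairs higher and 2 lower. The highest-scoring were the GTTTTT transcript in intron 1 of the kinase gene Jak1 (7.5 in control, 2.8 after IL-4, centred log2 ratio -1.10), the GTTT transcript of the PI3-kinase subunit gene Pik3r1 (4.9 and 4.3, 0.13) and GTTTT transcripts in intron 2 of the nuclear receptor gene Pparg (4.6 and 2.8, -0.39, and 2.8 and 2.1, -0.09). In the IL-4 receptor gene Il4ra a 46 bp GTTT transcript of 0.9 was paired with one of 468 bp and 2.2 (1.61), and in the lectin gene Mgl2 a GTTTT transcript went from 0.8 to 1.6 (1.32). The transcription factor gene Stat6 had a CTTTT transcript of 1.3 and 0.9 (-0.21). Il4ra, Mgl2 and Stat6 were added after their values were seen.

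Of 35 inflammatory genes, 6 held 9 members among 90 called transcripts in control and 6 held 7 among 102 after IL-4, by position. Their 8 pairs had 4 lower and 2 higher, and their 43 other pairs had 5 lower and 3 higher. The lower ones were those of Tlr2, Clec4d and Nlrp3 and a T-rich transcript of Tlr7 (0.7 and 0.2, -1.49). The higher ones were in the NF-kappaB subunit gene Rel and in the caspase gene Casp4 (0.1 and 0.2, 1.32 in both), scores at which 1 rounding step is a large change. By the gene names in the files, 3 of 6 pairs were lower and 1 higher. Another transcript named for Rel, a GGTTT repeat, had 1.2 and 1.9 (0.98). The Tlr7, Casp4 and lower-scoring Rel pairs were named after their values were seen.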

How the data were processed

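GRO-seq transcripts of 1 control and 1 IL-4 library (WT BMDMs, about 100 ng of nascent RNA each) were analysed as deposited. The reads had been aligned to mm10, and transcripts called and annotated by the authors in each library with HOMER. The submitters' processing notes list BWA 0.7.10, SAMtools 0.1.19 and HOMER 4.2. The only measurement is the score, which the authors deposited to 1 decimal. Its scaling and the sequencing depth are not given in the sources used here, so no interval that needs a depth was computed.

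The members and lists were chosen with earlier results of these data known. The repeat name, written on the genome plus strand, was complemented for minus-strand transcripts. Counterparts lay on 1 strand and shared 1 bp or more, and pairs were reciprocal largest overlaps. The 3 pairs with a score of 0 were left out. Log2 ratios were centred on the median of all pairs, the 2-fold limit included equality, and rounding ranges moved each score by 0.05. Shares carry 95% Wilson intervals. Gene lists and markers were counted by midpoint inside the GENCODE gene on its strand, a choice made after seeing the data, beside the gene names in the files. Host genes came from the RefSeq accession of the intron and RefSeq gene names, host strands and sequences from GENCODE M21.

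Named were the 10 highest-scoring members per library, the 5 highest without a counterpart, the 5 largest increases and decreases among pairs with a score of at least 1, and the 4 highest of each gene list. Some items that these rules chose are not reported here. No test between conditions was possible with 1 library each. The pairing step was tested on simulated, well separated transcripts, and the reading step on a few repeat names with known units. Control scores as low as those of many real transcripts and changes of length were not simulated. Python 3.11.15, pandas 2.3.3, numpy 2.4.6, scipy 1.17.1 and matplotlib 3.10.9 were used.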

Additional observations from a re-analysis of the deposited data

How the results depend on the processing

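Repeat transcripts made up 15.7% of the control and 12.0% of the IL-4 library at scores of at least 0.3, 9.39% and 6.77% at lengths of at least 100 bp, and 8.36% and 5.55% with simple repeats only. Weighting to the control length classes, chosen after seeing the data, gave 12.0% after IL-4 and turned the direction against control. Leaving out chromosome M and Rn45s changed neither share. At scores of at least 0.3 their median length was 124 and 157 bp, and the median score 0.5 in both. The share without a counterpart was 38.4% and 42.0% when at least 50% of the member had to be covered, which turned the order of the libraries, and 28.1% and 17.0% at scores of at least 0.3. The members at least 2-fold higher numbered 169 over the whole rounding range (4.05%, against 3.86% of all pairs). With score times length they numbered 618 (14.8% against 19.2%). They numbered 169 with an overlap of at least 50% of both transcripts (6.18% against 9.13%) and 107 with members in both libraries (6.36% against 10.3%). Those at least 2-fold lower numbered 1388 without centring (33.3%, against 27.8% of all pairs), 278 over the whole rounding range (6.67% against 3.21%), 403 with the 50% overlap (14.7% against 10.1%) and 243 with members in both (14.4% against 11.5%). With score times length the lower members were 21.8% of pairs, against 17.1% of all pairs. In each of these settings the lower members outnumbered the higher ones. Among all pairs lower ones also led without centring (27.8% against 8.60%), with the 50% overlap (10.1% against 9.13%) and in the main setting (11.5% against 10.3%). Higher ones led among all pairs over the rounding range (3.86% against 3.21%) and with score times length (19.2% against 17.1%). The share of AC/GT transcripts read as GT was 80.0% and 85.2% at scores of at least 0.3. In the 35 control and 20 IL-4 transcripts whose reference sequence could be read it was 60% and 65%. Name and sequence gave the same orientation in each of them, so that the difference lies in which transcripts could be read. The remaining 24 alternatives stayed within their counting interval or within 1.5 times the count. No paired analysis was possible because each condition had 1 library. Score steps of 0.1, an unknown depth and independent calling in each library limit every comparison, and low scores most of all.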
